A study of Mus musculus with 10 samples.

Results

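The 6 RNA-seq libraries of mouse neural stem and progenitor cells (NSPCs) fell into 2 classes by the share of their counts in the mitochondrial genome. A library was placed in the high-share class when at least 3% of its counts lay in genes whose symbol starts with mt-, and in the low-share class otherwise. This gave 3 high-share libraries (WT 2, WT 3 and KO 3) and 3 low-share libraries (WT 1, KO 1 and KO 2) out of 10 samples in the series. The other 4 samples are CUT&Tag libraries and were not used. The cells came from mouse brain with a genotype label of WT (wild type) or Mina53-KO and no further treatment. Mina53 belongs to the JmjC-domain proteins and has the current symbol Riox2; the study asked how its loss alters gene expression in NSPCs. The labels give no brain region, age, strain or way of making the knockout. Whether each library stands for its own animal or culture is not labelled, so spreads between libraries may be technical.

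Each class held both genotypes, 2 WT and 1 KO in the high-share class and 1 WT and 2 KO in the low-share class. The targeted gene matched the genotype labels in all 6 libraries. Riox2 was at 19.96, 17.2 and 18.5 CPM (counts scaled to a common library size) in WT 1, WT 2 and WT 3, and at 3.26, 3.78 and 3.70 CPM in KO 1, KO 2 and KO 3. Between the classes its fitted log2 difference was -0.08 (SE 0.13), high minus low.

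The mitochondrial genome encodes 13 proteins, all of them core subunits of the oxidative phosphorylation complexes, together with 2 ribosomal RNAs and the transfer RNAs needed to translate them. The remaining subunits, the mitochondrial ribosomal proteins and the factors that copy and transcribe mitochondrial DNA are encoded in the nucleus and imported. Neural stem cells are known to rely on glycolysis more than neurons do, and oxidative metabolism becomes more prominent as they differentiate. In poly(A) RNA-seq, the mitochondrial share is also a common quality measure of a library.

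The classes were read from the same counts as every gene described here. Differences between them are therefore given as values, with no test. A gene was said to part the classes when its high-share and low-share libraries did not overlap within WT, nor within KO, in the same direction, and its fitted difference was at least 1.5-fold. Of 15298 genes that passed the count filter, 880 (5.75%) were higher and 795 (5.2%) were lower in the high-share libraries by this rule. Without the 1.5-fold limit, 31.8% of genes did not overlap in the higher direction and 32.9% in the lower direction. The median log2 difference over all tested genes was -0.003, and 90% of genes lay between -0.61 and 0.65. Nothing is read from these counts, since the classes were chosen on the same libraries; they are the background for the counts of the gene groups below.

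The mitochondrial share was 2.31% in WT 1, 5.71% in WT 2 and 3.52% in WT 3, and 2.68% in KO 1, 2.65% in KO 2 and 4.64% in KO 3. The low-share libraries lay close together and the high-share libraries were spread out. The values nearest to the threshold were 3.52% (WT 3) on the inside and 2.68% (KO 1) on the outside. Of 37 mitochondrial genes in the table, 15 passed the count filter; the 22 transfer RNA genes did not.

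**Figure D1:**
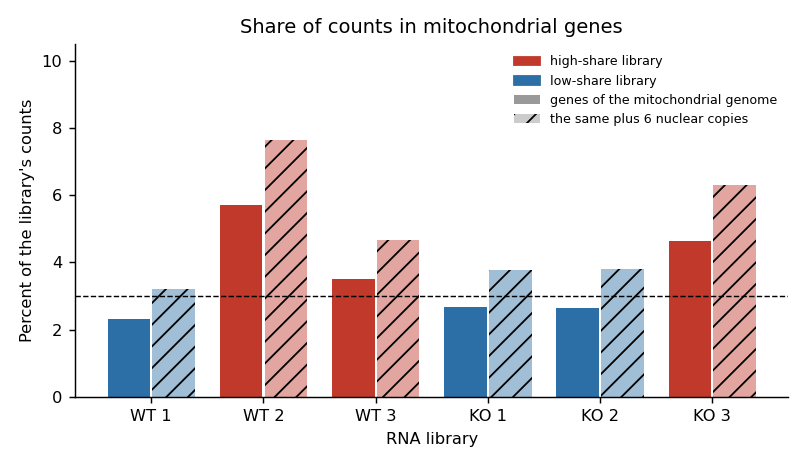
Percent of each library's counts in genes of the mitochondrial genome (solid bars), and in these plus 6 genes outside it that resemble them (hatched bars); red marks high-share and blue low-share libraries, and the dashed line is 3%. WT 2 (5.71%) and KO 3 (4.64%) stand well above the line and WT 3 (3.52%) stands just above it.

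Several properties of the libraries moved with the classes. The high-share libraries held 25184724 to 25939376 counts and 21804 to 22206 detected genes, against 19923010 to 23899258 counts and 20933 to 21352 genes in the low-share libraries. Counts in pseudogenes made up 0.947% to 1.34% of the high-share and 0.777% to 0.819% of the low-share libraries. Their part in the differences below was not tested. The first principal component of all genes held 47.4% of the variance and also separated the classes, at 20.7 to 46.3 for the high-share and -37.9 to -18.7 for the low-share libraries. With genotype alone in the model the common biological coefficient of variation was 17.9%, and with the class added it was 9.06%.

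Among the mitochondrial mRNAs, 8 of 13 were higher in the high-share libraries, none was lower, and the median log2 difference was 0.98. The 8 were the complex I subunits mt-Nd1, mt-Nd2, mt-Nd4, mt-Nd4l, mt-Nd5 and mt-Nd6, the complex IV subunit mt-Co1, whose counts were not whole, and the complex III subunit mt-Cytb. The rule itself used the sum of these genes, so their direction as a group is no finding. What the rule did not fix is how they differed among themselves.

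mt-Nd5, a membrane subunit of complex I, was at 4147 and 2906 CPM in WT 2 and WT 3 against 1786 in WT 1, and at 3197 CPM in KO 3 against 1310 and 1568 in KO 1 and KO 2. All high-share libraries were above all low-share libraries, and the fitted log2 difference was 1.07 (SE 0.14). mt-Nd6, the only protein encoded on the light strand of mitochondrial DNA, was at 653 and 449 CPM in WT 2 and WT 3 against 280 in WT 1. In the KO it was at 617 CPM in KO 3 against 232 and 255 in KO 1 and KO 2, a fitted log2 difference of 1.16 (SE 0.15). Counts assigned to mt-Nd6 were thus higher in the same libraries as those of mt-Nd5. The strand setting of the counting was not given, and whether these reads came from the light strand was not tested.

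mt-Nd1 showed a smaller gap within the KO. It was at 5043, 2915 and 2088 CPM in WT 2, WT 3 and WT 1, and at 4377 CPM in KO 3 against 2928 and 2722 in KO 1 and KO 2. WT 3 therefore lay at the level of the KO low-share libraries, and the classes separated for mt-Nd1 only within each genotype. mt-Cytb was at 9377, 5426 and 3383 CPM in WT 2, WT 3 and WT 1, and at 7089, 4040 and 4357 CPM in KO 3, KO 1 and KO 2. The ribosomal RNA mt-Rnr2 parted the classes as well (log2 difference 0.83, SE 0.29), whereas mt-Rnr1 did not, since WT 3 (68.5 CPM) lay at the level of WT 1 (69.7 CPM).

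The 5 mitochondrial mRNAs that did not part the classes were mt-Co2, mt-Co3, mt-Atp6, mt-Atp8 and mt-Nd3. For 4 of them, as well as for mt-Nd4l, the table lists a gene outside the mitochondrial genome whose protein annotation is the same subunit, and both counts of each pair were not whole in any of the 6 libraries, as splitting reads between loci would give. For mt-Atp8 no such gene was found, and its level was low, at 5.57 to 38.4 CPM. The copy of mt-Co2, Gm28661, held 96.4% to 99.2% of the summed counts of the pair, and across the 5 pairs the copy's part ranged from 81.6% to 99.2%. These mitochondrial genes therefore cannot be read apart from their copies.

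Summed with its copy, mt-Atp6 was at 5805 and 3213 CPM in WT 2 and WT 3 against 2072 in WT 1, and at 4876 CPM in KO 3 against 2742 and 2686 in KO 1 and KO 2. The sums for mt-Co2, mt-Co3 and mt-Nd4l also separated the classes within each genotype, by 1.72-fold, 1.58-fold and 4.60-fold in WT and by 1.41-fold, 1.33-fold and 3.29-fold in the KO. The sum for mt-Nd3 did not, at 315 CPM in KO 3 against 319 in KO 1. One mitochondrial-like gene went the other way. Gm29216, annotated with cytochrome c oxidase activity, was at 3.45, 5.71 and 2.53 CPM in WT 2, WT 3 and KO 3 and at 119, 34.1 and 168 CPM in WT 1, KO 1 and KO 2.

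Most nuclear-encoded subunits of the same complexes lay lower, not higher, in the high-share libraries, though their summed level did not fall in WT 2. Of 37 complex I subunits tested, 31 had a difference below 0, with a median of -0.28. In the lower direction 22 did not overlap, against 32.9% of all genes, but none reached the 1.5-fold limit in either direction. Summed, the 37 subunits were at 3498 and 3055 CPM in WT 2 and WT 3 against 3499 in WT 1. In the KO they were at 3162 CPM in KO 3 against 3578 and 3873 in KO 1 and KO 2. Ndufb7, an accessory subunit, was at 44.7 and 43.5 CPM in WT 2 and WT 3 against 63.2 in WT 1, and at 41.8 CPM in KO 3 against 59.9 and 67.8 in KO 1 and KO 2. Ndufs1, the largest subunit of complex I, was at 333 and 299 CPM against 282 in WT, and at 370 CPM against 332 and 319 in the KO. The subunits of complex I thus did not move as one block, and the 6 above 0 also included Ndufv2 (0.24, SE 0.11).

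Of 39 subunits of complexes II to V, 4 were lower by the rule (10.3%, against 5.2% of all genes), none was higher, and the median was -0.14. The 4 were Uqcrq and Uqcr10 of complex III, Cox6a1 of complex IV and Atp5f1d, the delta subunit of ATP synthase. Cox6a1 was at 128 and 136 CPM in WT 2 and WT 3 against 186 in WT 1, and at 126 CPM in KO 3 against 195 and 235 in KO 1 and KO 2. None of the 4 still parted the classes without KO 3 or with the length trend subtracted. Summed, the 39 subunits were at 11697 and 10573 CPM in WT 2 and WT 3 against 11389 in WT 1, so the classes overlapped within WT. In the KO they were at 10431 CPM in KO 3 against 11057 and 11901 in KO 1 and KO 2. Among 50 mitochondrial ribosomal proteins, 4 were lower (8.0%) and 1 was higher (2.0%), with a median of -0.15. Over all genes 5.2% were lower and 5.75% higher. Mrps12, of the small subunit, had a log2 difference of -0.91 (SE 0.14).

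The machinery that copies and expresses mitochondrial DNA was split. Of 24 genes, 3 were lower (12.5%, against 5.2% of all genes), none was higher by the rule, and the median was 0.15. Polrmt, the mitochondrial RNA polymerase, was at 21.1 and 26.5 CPM in WT 2 and WT 3 against 34.9 in WT 1, and at 22.03 CPM in KO 3 against 36.2 and 39.4 in KO 1 and KO 2. Esrra, a nuclear receptor that drives mitochondrial genes, and its co-activator Ppargc1b were lower as well (-0.65, SE 0.11, and -0.74, SE 0.32). Ppargc1b was at only 0.53 to 1.52 CPM and no longer parted the classes without WT 1 or without WT 2. Esrra failed to without WT 2, and Polrmt without KO 3.

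Other factors of the same machinery lay above 0 without reaching 1.5-fold. Ppargc1a, a co-activator of mitochondrial biogenesis, was at 88.8 and 83.3 CPM against 62.2 in WT, and at 77.3 CPM against 54.8 and 51.5 in the KO. Gabpa, the DNA-binding subunit of GA-binding protein, and Pnpt1, a mitochondrial RNA-processing enzyme, had log2 differences of 0.56 (SE 0.08) and 0.52 (SE 0.10). Tfam, which packages mitochondrial DNA, had 0.27 (SE 0.10).

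Glycolytic genes lay lower in the high-share libraries. Of 22 genes, 21 were below 0, with a median of -0.31, and 17 did not overlap in the lower direction, against 32.9% of all genes. Counts of 12 of the 22 genes were not whole in at least 1 library, and the part of reads shared with copies was not tested. Gapdh was at 1725 and 1785 CPM in WT 2 and WT 3 against 2392 in WT 1, and at 1328 CPM in KO 3 against 1887 and 1965 in KO 1 and KO 2. Pkm, which makes pyruvate, had a log2 difference of -0.42 (SE 0.07), and Tpi1 had -0.52 (SE 0.07). Only Slc16a3, a lactate exporter, reached 1.5-fold by the rule, and its counts were not whole in 4 libraries. It was at 1.75 CPM in KO 3 against 4.05 and 2.00 in KO 1 and KO 2. Slc16a3 no longer parted the classes with the replicate block or without the genotype covariate. Slc16a1, another monocarboxylate carrier, was the gene above 0 (0.23, SE 0.09). The tricarboxylic acid cycle was not lower: its 16 genes had a median of 0.10 and none parted the classes.

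Cytosolic ribosomal protein genes lay lower too. Of 76 tested, 71 were below 0, with a median of -0.31. By the rule 7 were lower (9.21%, against 5.2% of all genes) and none was higher. Rpl28 was at 88.1 and 114 CPM in WT 2 and WT 3 against 189 in WT 1, and at 84.5 CPM in KO 3 against 178 and 198 in KO 1 and KO 2. Rpl13, Rpl36 and Rps16 had log2 differences of -0.90 (SE 0.10), -0.88 (SE 0.11) and -0.70 (SE 0.08). The summed share of these genes was 2.21%, 2.07% and 1.98% of the counts in WT 2, WT 3 and KO 3, against 2.57%, 2.56% and 2.74% in WT 1, KO 1 and KO 2. Counts of 66 of the 76 genes were not whole in at least 1 library, and the part of reads shared with their many copies was not tested.

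**Figure D2:**
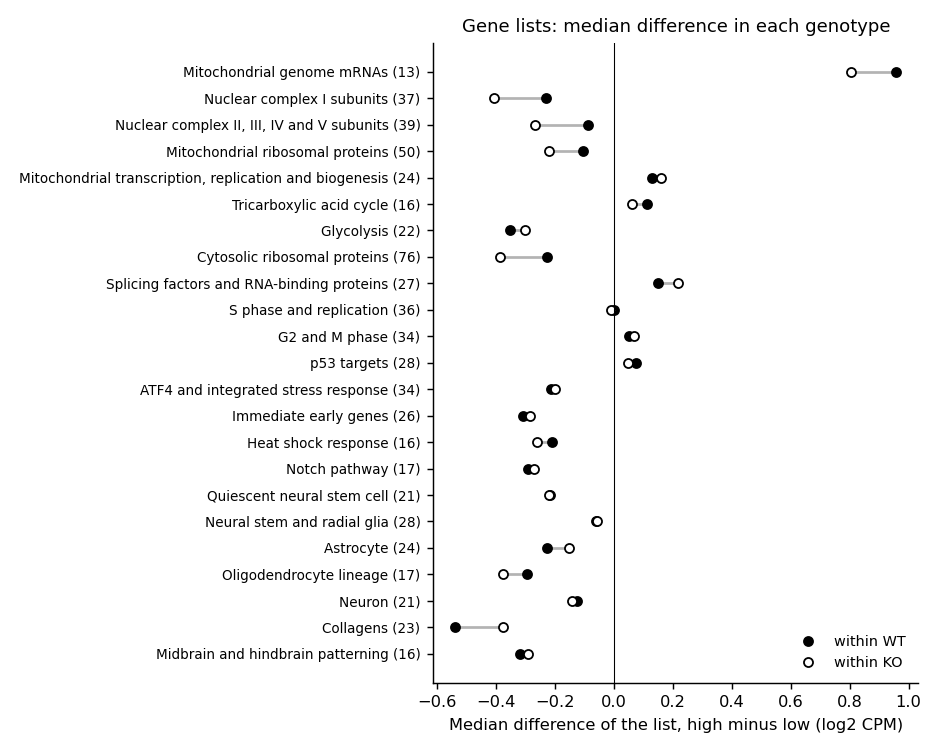
Median log2 difference, high minus low, of 23 gene lists within WT (filled circles) and within KO (open circles), with the number of tested genes in parentheses. Mitochondrial mRNAs stand at 0.96 in WT and 0.81 in the KO, while nuclear complex I subunits stand at -0.23 and -0.41 and cytosolic ribosomal proteins at -0.23 and -0.39.

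Several such copies are listed in the table as genes of their own. Processed copies of abundant mRNAs, which arise when an mRNA is reverse-transcribed and inserted elsewhere in the genome, are nearly identical to their source gene. There were 6 genes with at most 3 counts in each low-share library and at least 100 in each high-share library, and no gene with the opposite pattern. All 6 were pseudogenes or predicted genes. The largest, Gm10052, annotated as resembling the RNA-binding protein Hnrnpa1, had 8552 counts in WT 2, 4643 in WT 3 and 7090 in KO 3, and 0 in WT 1, KO 1 and KO 2.

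Hnrnpa1 itself was at 959, 969 and 877 CPM in the high-share libraries WT 2, WT 3 and KO 3, and at 1179, 1106 and 1137 CPM in WT 1, KO 1 and KO 2. Summed with Gm10052, the level was 1311, 1148 and 1153 CPM against 1179, 1106 and 1137 CPM, so that the classes overlapped within WT, while KO 3 was the highest of the KO libraries. The log2 difference of Hnrnpa1 alone was -0.32 (SE 0.07). The copy held 15.6% to 26.8% of the sum in the high-share libraries and none in the others.

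A similar switch was seen for phosphoglycerate kinase. Gm5537, annotated as Pgk1, had 3685, 2099 and 4105 counts in WT 2, WT 3 and KO 3 and 0 in the low-share libraries. Pgk1 plus this copy was at 1360 and 1248 CPM in WT 2 and WT 3 against 1347 in WT 1, and at 1106 CPM in KO 3 against 1124 and 1014 in KO 1 and KO 2, so that the classes overlapped within both genotypes. Rps6-ps4, a copy of the small-subunit protein gene Rps6, had 4735, 1237 and 1931 counts in the high-share and 0 in the low-share libraries, and it held 9.70% to 31.6% of the summed level.

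Other pairs differed among themselves. The Rpl13 copy Gm12918 had 1227, 140 and 603 counts in WT 2, WT 3 and KO 3 and 0 elsewhere. The sum of both was still lower in the high-share libraries, at 284, 302 and 261 CPM against 476, 428 and 489 CPM in WT 1, KO 1 and KO 2. The sum of Rps13 and its copy Rps13-ps2 was at 145.8 and 110.8 CPM in WT 2 and WT 3 against 136.3 in WT 1, and at 122.8 CPM in KO 3 against 140.2 and 145.7 in KO 1 and KO 2, so that it overlapped within WT only. The sum of Rpl12 and its copy Gm10275 was higher in the high-share libraries, at 49.2, 41.7 and 49.3 CPM against 26.4, 25.6 and 30.01 CPM in WT 1, KO 1 and KO 2. The reads themselves were not analysed here, so whether they came from a copy or from its source gene was not tested.

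**Figure D3:**
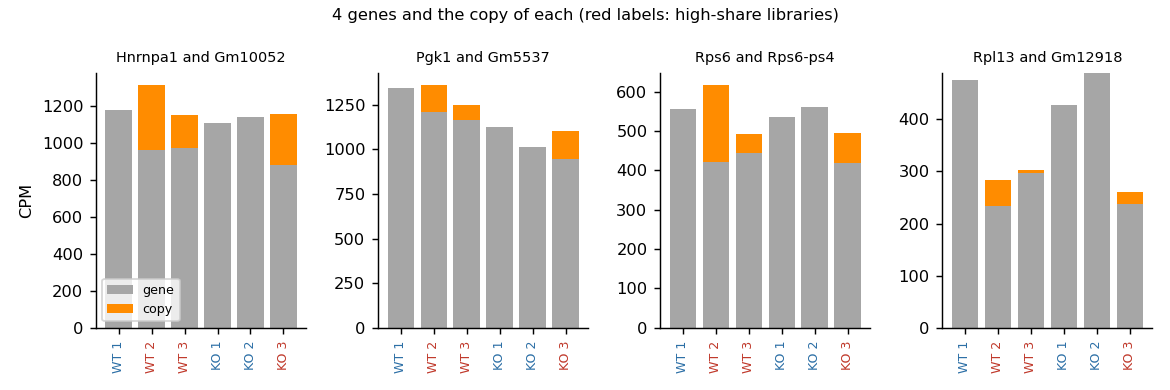
Level in CPM (linear axis) of Hnrnpa1, Pgk1, Rps6 and Rpl13 (grey) with the level of 1 copy of each stacked on top (orange) in the 6 libraries; red labels mark the high-share libraries. The copies appear in WT 2, WT 3 and KO 3 and are at 0 in WT 1, KO 1 and KO 2, and for Rpl13 the stacked bars of the high-share libraries stay below the others.

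Nuclear genes with whole counts in all libraries, pseudogenes and predicted genes left aside, have no fractional counts that sharing of reads would leave. Cggbp1, which binds CGG repeats, was at 159 and 125 CPM in WT 2 and WT 3 against 77.1 in WT 1, and at 142 CPM in KO 3 against 86.3 and 77.5 in KO 1 and KO 2. The high-share libraries were all above the low-share ones, with a log2 difference of 0.84 (SE 0.10).

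Other genes higher in this way were the type II BMP receptor Bmpr2 (0.83, SE 0.11), the integrin Itgb8 (0.76, SE 0.08), which activates latent TGF-beta, the Hippo co-activator Mob1b (0.78, SE 0.10) and the mitotic gene Depdc1a (0.84, SE 0.12). Zfp760 and Zfp654, both zinc finger genes, were higher by 0.90 (SE 0.12) and 0.79 (SE 0.13). Eif3j2 and Septin2 had larger differences (1.42, SE 0.15, and 1.13, SE 0.19), but their counts were not whole. Eif3j2 has a close paralogue, Eif3j1, and the symbol Septin2 stands for 2 gene IDs in the table, so both values are uncertain.

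The lower genes with whole counts encoded proteins of several kinds. Gdf15, a secreted stress hormone, was at 5.30 and 5.40 CPM in WT 2 and WT 3 against 11.8 in WT 1, and at 7.36 CPM in KO 3 against 14.3 and 15.6 in KO 1 and KO 2. Pcsk1n, an inhibitor of prohormone convertase, had a log2 difference of -1.10 (SE 0.18), Tbcc, a tubulin-folding cofactor, -1.08 (SE 0.14), and Sf3b5, a splicing factor subunit, -1.01 (SE 0.13). Bbc3, a pro-apoptotic p53 target, was lower by 0.95 on the log2 scale (SE 0.13). The values of Srp54b (-2.47, SE 0.57) and Rnaseh2c (-1.29, SE 0.12) rest on counts that were not whole and are uncertain.

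Gene length moved with the classes. In the shortest of 5 bins of gene length, 132 to 1583 bases, the median log2 difference was -0.12, and it was -0.06, -0.01 and 0.04 in the next bins and 0.13 in the longest, 4699 bases and over. Of the genes in the shortest bin 9.46% were lower and 6.82% higher by the rule, and in the longest 2.45% were lower and 6.15% higher. The mitochondrial mRNAs (median length 784 bases) went against this order, and so did the collagens (median 5930 bases), described next. Ribosomal proteins (median 810 bases) and complex I subunits (763 bases) went with it.

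**Figure D4:**
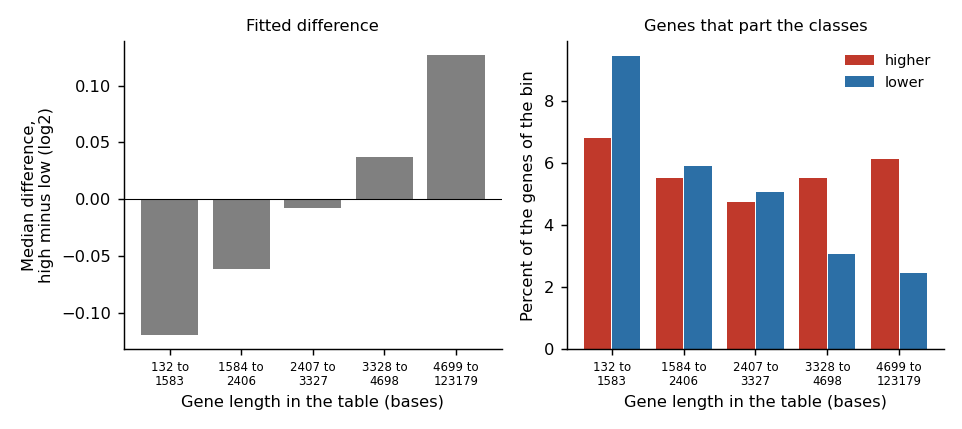
Left, the median log2 difference, high minus low, of the tested genes in 5 bins of gene length; right, the percent of genes in each bin that were higher (red) or lower (blue) by the rule. The median goes from -0.12 in the shortest bin to 0.13 in the longest, and the lower share from 9.46% to 2.45%.

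Collagens, structural proteins of the extracellular matrix, were all below 0: 23 of 23 tested, with a median of -0.40. By the rule 6 were lower (26.1%, against 5.2% of all genes) and none was higher. Col16a1 was at 34.0 and 57.8 CPM in WT 2 and WT 3 against 82.4 in WT 1, and at 37.7 CPM in KO 3 against 66.3 and 66.1 in KO 1 and KO 2. Col4a1, of the basement membrane, was at 21.2 and 23.5 CPM against 35.5 in WT, and at 13.0 CPM against 18.8 and 17.7 in the KO. Col5a3 and Col18a1 had log2 differences of -0.62 (SE 0.11) and -0.60 (SE 0.13), and neither still parted the classes without WT 1 or without WT 2. Col4a1 and Col26a1 lay just past the 1.5-fold limit, at -0.586 each. Col11a2 was at only 0.37 to 1.66 CPM. The summed level of all 28 listed collagens was 371 to 448 CPM in the high-share and 548 to 564 CPM in the low-share libraries.

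Immediate early genes, which are switched on within minutes of growth-factor or stress signals and encode mainly short-lived transcription factors, were lower in part. Of 26 tested, 22 were below 0, 6 were lower by the rule (23.1%, against 5.2% of all genes), none was higher, and the median was -0.28. The 6 were the AP-1 members Junb, Jund, Jun and Fosl1 together with Ier2 and Arc. Fosl1 was at only 0.27 to 1.48 CPM, and its counts were not whole in 6 libraries. Junb was at 3.49 and 4.20 CPM in WT 2 and WT 3 against 9.62 in WT 1, and at 3.15 CPM in KO 3 against 8.01 and 9.60 in KO 1 and KO 2. Jun was at 123 and 166 CPM against 228 in WT, and at 140.5 CPM against 208 and 217 in the KO.

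Fos and Egr1, the classical members, were below 0 without reaching 1.5-fold. Egr1 was at 118 and 133 CPM in WT 2 and WT 3 against 153 in WT 1, and at 120 CPM in KO 3 against 140 and 143 in KO 1 and KO 2. Klf6 was above 0 (0.39, SE 0.09). The differences of Junb, Jund and Jun were larger in size than those of Fos (-0.29, SE 0.10) and Egr1 (-0.26, SE 0.08). Counts of Jund were not whole in 5 libraries, so its value is uncertain.

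The promoters of the Jun family are shown because these 3 genes were lower by the rule, Jund with the uncertainty of its counts. The 120 bases before the annotated start were taken from RefSeq (GRCm38.p6), for Jun at chr4:95052223-95052342 (minus strand), for Junb at chr8:84978749-84978868 (minus strand) and for Jund at chr8:70697619-70697738 (plus strand). They read 5′ to 3′, and capitals mark TGACG, the core of a cAMP response element, or TGACATCA, a variant AP-1 site, searched on both strands.
Jun: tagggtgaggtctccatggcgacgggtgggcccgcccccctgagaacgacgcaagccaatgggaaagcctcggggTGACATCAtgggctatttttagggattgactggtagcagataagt
Junb: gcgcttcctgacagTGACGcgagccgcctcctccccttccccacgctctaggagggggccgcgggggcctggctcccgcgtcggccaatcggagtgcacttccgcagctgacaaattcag
Jund: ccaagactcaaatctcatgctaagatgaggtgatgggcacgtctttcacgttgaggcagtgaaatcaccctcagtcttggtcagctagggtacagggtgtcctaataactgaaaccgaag
Neither motif was found in the Jund stretch. Over 32851 promoters of 300 bases, 20.8% held TGACG and 3.62% held TGACATCA, and a match is only a description.

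Targets of ATF4, the transcription factor of the integrated stress response, were lower in part. Of 34 tested, 26 were below 0, with a median of -0.22. By the rule 5 were lower (14.7%, against 5.2% of all genes) and none was higher. Beside Gdf15 these were Cebpb, Trib3, Atf5 and Eif4ebp1, the translation repressor. Cebpb and Trib3 were low, at 1.00 to 2.70 CPM and 0.93 to 3.38 CPM, and counts of Cebpb were not whole in 4 libraries. Atf5 was at 36.9 and 43.0 CPM in WT 2 and WT 3 against 63.1 in WT 1, and at 35.1 CPM in KO 3 against 49.5 and 62.2 in KO 1 and KO 2. Ddit3 (-0.25, SE 0.13), Asns (0.08, SE 0.10) and Psat1 (0.07, SE 0.08) did not part the classes. The mitochondrial proteases and chaperones did not either: none of 11 genes passed, with a median of 0.003.

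Cell cycle genes mostly did not part the classes. Of 34 G2 and M phase genes none parted the classes, and the median was 0.07. Mki67 was at 703 and 728 CPM in WT 2 and WT 3 against 623 in WT 1, and at 623 CPM in KO 3 against 567 and 513 in KO 1 and KO 2. Of 36 S phase genes only Ccne2, cyclin E2, parted the classes (0.64, SE 0.13), and its counts were not whole. The cyclin-dependent kinase inhibitor Cdkn2a was lower (-0.62, SE 0.09), and Cdkn1a lay at -0.38 (SE 0.07) without parting them.

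The libraries carried the defining markers of NSPCs in both classes. Sox2 was at 159, 175 and 160 CPM in the high-share and at 197, 186 and 198 CPM in the low-share libraries, and Nes at 581, 721 and 842 CPM against 843, 1147 and 1072 CPM. Of 28 neural stem and radial glia markers, 2 were lower (7.14%, against 5.2% of all genes), none was higher, and the median was -0.05. The 2 were Sox3, a stem cell transcription factor (-0.81, SE 0.13), and Hes5, a Notch effector. Counts of Hes5 were not whole in 5 libraries, so its value is uncertain.

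Of 21 genes known from quiescent neural stem cells 13 were below 0 and 8 above, with a median of -0.22. By the rule 5 were lower (23.8%, against 5.2% of all genes) and none was higher. The 5 were Id1 and Id3, inhibitors of differentiation induced by BMP, Hes5, the lipid carrier Apoe and the metallothionein Mt1. With the length trend subtracted, Id1, Hes5, Apoe and Mt1 no longer parted the classes. Hes5 and Apoe also failed to without WT 2, and Mt1 without KO 3. Apoe and Mt1 no longer parted them without the genotype covariate either. Id3 held under every alternative but the 2-fold limit, which was not counted. Id3 was at 54.3 and 69.0 CPM in WT 2 and WT 3 against 95.8 in WT 1, and at 49.5 CPM in KO 3 against 81.4 and 88.4 in KO 1 and KO 2. Apoe was at 403 and 647 CPM against 821 in WT, and at 374 CPM against 591 and 583 in the KO, so that WT 3 lay above the low-share KO libraries.

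Receptors, ligands and targets of Notch lay below 0 unevenly. Of 17 genes tested, 12 were below 0, with a median of -0.35. By the rule 2 were lower, Hes5 and the ligand Dll3 (11.8%, against 5.2% of all genes). Neither still parted the classes without WT 2. Dll3 also failed to without WT 1, and Hes5 with the length trend subtracted. Counts of Hes5 were not whole in 5 libraries. Hes5 was at 7.07 and 11.4 CPM in WT 2 and WT 3 against 15.7 in WT 1, and at 15.0 CPM in KO 3 against 24.9 and 20.2 in KO 1 and KO 2. Notch1 had a difference of -0.33 with an SE of 0.16, and its values of 154 and 244 CPM in WT 2 and WT 3 against 260 in WT 1 show that WT 3 was near the low-share level.

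Among glial lineage genes, the oligodendrocyte transcription factor Olig1 was at 1415 and 1729 CPM in WT 2 and WT 3 against 2418 in WT 1, and at 1403 CPM in KO 3 against 2094 and 2340 in KO 1 and KO 2 (log2 difference -0.64, SE 0.09). Its partner Olig2 lay at -0.45 (SE 0.07). Of 17 oligodendrocyte lineage genes 3 were lower (17.6%, against 5.2% of all genes), none was higher, and the median was -0.37. Sox10 and Mbp, the other 2 beside Olig1, were at under 2 CPM in every library. Olig1 itself no longer parted the classes without WT 2. Of 24 astrocyte genes 16 were below 0 and 8 above, with a median of -0.19. By the rule 2 were lower, Id3 and Apoe (8.33%, against 5.2% of all genes), and none was higher. Apoe no longer parted the classes without WT 2 or with the length trend subtracted. Gfap lay at -0.28 (SE 0.08) and Aqp4 at 0.45 (SE 0.11).

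Markers of microglia and red blood cells were low. Of 16 microglial genes listed, 3 were tested, and 4 were at 0 in every library, Cx3cr1 and Trem2 among them, and the list summed to 33.1 to 45.2 CPM in the high-share and 30.7 to 36.0 CPM in the low-share libraries. The 9 erythroid genes summed to under 1 CPM in each library. Of 21 neuronal markers tested, 15 were below 0 and 6 above, with a median of -0.16. None was lower by the rule, and only Syt1 was higher (0.86, SE 0.25), at 3.21 CPM or less. The neuronal list summed to 1266 to 1571 CPM in the high-share and 1082 to 1365 CPM in the low-share libraries. Map2 made up the largest part of this sum. It was at 721 and 684 CPM in WT 2 and WT 3 against 518 in WT 1, and at 928 CPM in KO 3 against 688 and 659 in KO 1 and KO 2. In bulk RNA, fewer cells of a type and less RNA per cell cannot be told apart.

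Splicing factors lay on the other side. Of 27 splicing and RNA-binding genes 24 were above 0, with a median of 0.15. In the higher direction 18 did not overlap, against 31.8% of all genes, though none reached 1.5-fold by the rule. Clk1, a kinase of splicing factors, was at 113 and 98.2 CPM in WT 2 and WT 3 against 72.6 in WT 1, and at 142 CPM in KO 3 against 91.6 and 95.1 in KO 1 and KO 2. Srsf10 (0.52, SE 0.10) and Ddx5 (0.38, SE 0.07) lay in the same direction, and Cirbp, the cold-inducible RNA-binding protein, lay in the other (-0.29, SE 0.11).

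The class difference could be compared between the genotypes, since the difference within WT and that within the KO share no library. Across the 15298 genes they correlated with Pearson's r of 0.68 and Spearman's coefficient of 0.72, a description across genes, which are not independent. The sign was the same for 82.4% of genes.

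**Figure D5:**
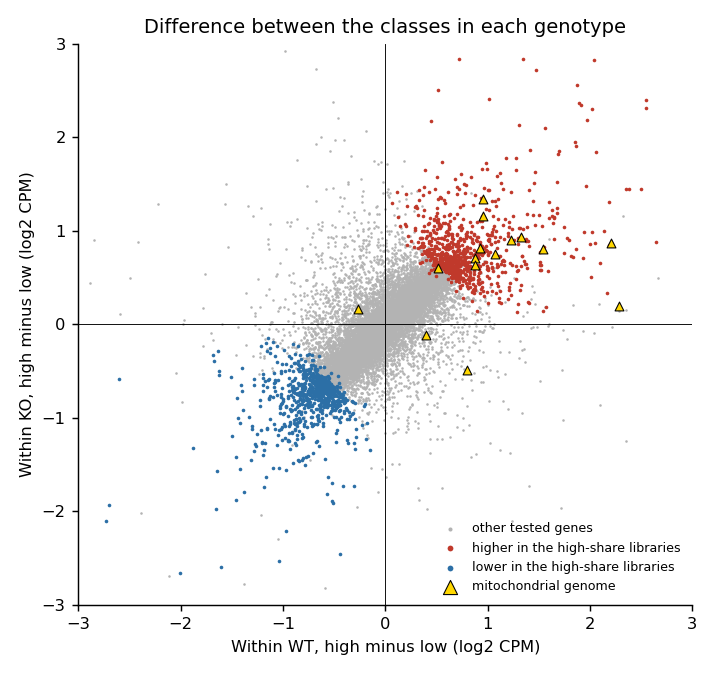
Log2 CPM difference, high minus low, of each tested gene within WT (horizontal) and within the KO (vertical); red and blue mark genes higher and lower in the high-share libraries by the rule, and triangles mark the mitochondrial genome. Most genes lie along the diagonal (Pearson's r 0.68), and 68 genes lie outside the axes.

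The difference between the genotypes in this respect was tested with an interaction term, which is not fixed by the choice of the classes. The low-share WT arm was WT 1 alone and the high-share KO arm was KO 3 alone, so each lone library is assumed to vary like the others. With edgeR's quasi-likelihood test and Benjamini-Hochberg adjustment, 1 of 15298 genes (0.00654%) passed at 0.05, and 167 genes (1.09%) had an unadjusted p under 0.05. DESeq2 called 4. The gene was Idi1-ps1, a copy of the cholesterol-synthesis gene Idi1, with an adjusted p of 0.000132. It had 154, 279 and 424 counts in WT 1, WT 2 and WT 3, and 0, 0 and 519 in KO 1, KO 2 and KO 3, so the 2 low-share KO libraries alone were at 0, and the value rests on these 0 counts and on 1 library in each lone arm. With 2 residual degrees of freedom, the test could miss differences between the genotypes, and a gene that did not pass is not shown to act alike in both.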

How the data were processed

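Poly(A) RNA of 3 WT and 3 KO NSPC libraries was sequenced after preparation with a stranded kit, per the labels' protocols. HISAT2, StringTie and GRCm39 appear in the submitters' processing notes, without versions. The counting tool, strand setting and annotation release were not given in the sources used here. Expected counts per gene, as deposited, are not scaled, and some are not whole, as the splitting of reads between loci would give; they were rounded. Gene lengths are as deposited.

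Counts were analysed with edgeR 4.0.16 (filterByExpr with a minimum count of 10, TMM scaling, robust glmQLFit with genotype and class) in R 4.3.3. SEs were taken as the size of the fitted difference over the root of F. TMM-scaled CPM are given, and log2 CPM used a prior count of 2. Depth was 19923010 to 25939376 counts per library, and precision follows from this and from 3 libraries per class. The interaction was tested with glmQLFTest. On simulated counts of 15118 genes with 200 genes changed 4-fold, all were recovered. Only genes above a set mean level were changed, and all genes were given the same spread. The recovery therefore does not give the power for genes with low counts, smaller differences or a wider spread.

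The classes, members, and all 60 gene lists (1347 symbols, 26 not in the table) were chosen with earlier results of these data known. Of each list, up to 4 members that part the classes with the largest differences were named, besides Riox2, the mitochondrial mRNAs, the 15 largest differences in each direction at a mean log2 CPM of at least 3 without predicted genes and pseudogenes, and the 5 smallest interaction p in each direction. Some genes that this rule names are not reported here. Others named were chosen after their values were seen, as were the copies, the whole-count genes and the length bins. Alternatives were RLE size factors, library totals, no count filter, 1 CPM in 3 libraries, DESeq2 1.42.0, no mitochondrial genes, no robust dispersion, a replicate block, no genotype covariate, a 2-fold limit, the log2 share in place of the classes and each library left out; added after seeing the data were whole counts only, the length trend subtracted and the share with copies. RefSeq (GRCm38.p6) supplied biotypes and promoters.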

Additional observations from a re-analysis of the deposited data

Results flagged for a closer look

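Idi1-ps1 was the gene whose class difference differed between WT and KO by the interaction test (edgeR quasi-likelihood, adjusted p 0.000132). It had 154 counts in the low-share and 279 and 424 in the high-share WT libraries, against 0 in both low-share KO libraries and 519 in KO 3. The low-share WT arm and the high-share KO arm held 1 library each, WT 1 and KO 3, which are assumed to vary like the others. The value therefore rests on 1 library in each of these arms and on the counts of 0 in KO 1 and KO 2. Its source gene Idi1 was at 288, 439 and 354 CPM in WT 1, WT 2 and WT 3 and at 239, 239 and 309 CPM in KO 1, KO 2 and KO 3. Counts of Idi1-ps1 were not whole in 4 libraries and those of Idi1 in 5, and the part of reads shared between loci was not tested. The next genes by p, Gm6403 and Gm20547, had an adjusted p of 0.325 each by the same test.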

How the results depend on the processing

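Of 57 lists with at least 5 tested members, 44 had a median below 0, and 38 kept 1 sign under all 19 alternatives (30 below 0 and 8 above). Among the lists described here, those that did not were the astrocyte, S phase, p53, midbrain and hindbrain, cold-shock and circadian, and mitochondrial protease lists. The 880 higher and 795 lower genes became 1642 and 1383 with no count filter, 219 and 127 at a 2-fold limit, and 386 and 499 with whole counts only. Leaving out 1 library gave 826 to 1343 higher and 746 to 1306 lower genes, with 1343 and 1306 without WT 1 and 1203 lower without WT 3; where no high- or low-share library of a genotype was left, overlap was judged in the other genotype. Whether the replicate numbers pair the libraries cannot be told. Deviations from the genotype means correlated at 0.46, -0.37 and 0.27 between the WT and KO libraries of replicates 1, 2 and 3. The class was not removed from them. Replicates 1 and 3 were in the same class in both genotypes and replicate 2 was not. The replicate block gave 1801 higher and 2111 lower genes, and no block could be fitted with the interaction. With the copies added, 6 libraries had a share of at least 3%, at 3.21% to 3.79% in the low-share and 4.67% to 7.65% in the high-share class. The correlation between the genotypes was 0.78 with 1 CPM in 3 libraries and 0.59 to 0.64 with 1 library left out. The interaction called 25 genes with no count filter, 4 by DESeq2, and 9 to 44 with 1 library left out (10 without WT 2, 44 without WT 3, 9 without KO 1 and 9 without KO 2); without WT 1 or KO 3 it could not be estimated. The Riox2 log2 difference, KO minus WT, was -2.50 to -2.27 with 1 library left out, against -2.39. Of 113 named genes that part the classes, 69 did so under every alternative but the 2-fold limit. Barhl2, one of the midbrain and hindbrain genes, was reversed without the genotype covariate (0.047). Genes under 1 CPM have too few counts for a firm difference.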

Other observations

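Further groups were described after their values had been seen, against 5.75% higher and 5.2% lower over all tested genes. Of 368 zinc finger genes named Zfp, 63 were higher and 20 lower in the high-share libraries, with a median of 0.22. Of 51 genes that the table annotates with RNA-directed DNA polymerase activity, the enzyme of retrotransposons, 20 were higher and none was lower, with a median of 0.46, and 44 had counts that were not whole. Of 732 long non-coding RNAs by RefSeq, 91 were higher and 33 lower, and of 299 pseudogenes and copies, 80 were higher and 32 lower. Protein-coding genes had 478 higher and 667 lower of 13157.

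Among patterning genes, none of 12 telencephalic and none of 6 Hox genes tested parted the classes. Their medians were -0.30 and -0.20, with 10 of the 12 and 5 of the 6 below 0. Of 16 midbrain and hindbrain genes 4 were lower, none was higher, and the median was -0.38. Irx3, a homeobox gene, was at 5.43 and 7.33 CPM in WT 2 and WT 3 against 10.97 in WT 1, and at 3.39 CPM in KO 3 against 5.68 and 5.74 in KO 1 and KO 2. Irx1 and Irx5 had log2 differences of -0.76 (SE 0.18) and -0.75 (SE 0.17). All 4 lower genes, Irx1, Irx3, Irx5 and Barhl2, no longer parted the classes without the genotype covariate. Of 17 cold-shock and circadian genes 2 were higher (11.8%, against 5.75% of all genes), none was lower, and the median was -0.05. The 2 were Clock (0.59, SE 0.08) and Nr1d2 (0.61, SE 0.09). Clock no longer parted the classes under 6 alternatives and Nr1d2 under 4, the 2-fold limit not counted. Of 28 p53 targets 2 were higher, 1 was lower, and the median was 0.08, shares near those of all tested genes. The 2 were Trp53inp1 (0.67, SE 0.08) and Eda2r (0.61, SE 0.08), and Bbc3 was lower (-0.95, SE 0.13).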
